A study of Mus musculus with 4 samples.

Results

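The genes followed here, 10 members of the YAP-TEAD pathway, were measured in ventricles of newborn mice: the co-activators Yap1 and Wwtr1 (the gene of TAZ), the DNA-binding factor Tead1, the co-repressor Vgll4, the kinases Lats1 and Lats2, and the target genes Ctgf, Cyr61, Ankrd1 and Amotl2. They were chosen by function, by name, and all 10 of 10 were found among the 53465 genes of the count files by identifier. GENCODE lists Ctgf as Ccn2 and Cyr61 as Ccn1. Both groups of mice were homozygous for a floxed allele of Ctnnb1, the β-catenin gene, and were taken at postnatal day 1. The knockout group, 2 libraries, had the genotype Ctnnb1floxP/floxP; alphaMHC-Cre+, in which a myosin heavy chain promoter drives the Cre recombinase in cardiomyocytes, so that non-myocytes of the same ventricles keep the gene. The control group, also 2 libraries, had the genotype Ctnnb1floxP/floxP; alphaMHC-Cre-. The transgene is thus present in the knockout group alone, and its presence and the deletion cannot be told apart. The labels do not say that the libraries come from separate animals, so p-values measure the spread between these libraries only.

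YAP and TAZ are co-activators without a DNA-binding domain of their own, and they act on genes through TEAD factors. The Hippo kinase cascade, with LATS1 and LATS2 at its end, phosphorylates YAP and TAZ and keeps them out of the nucleus, and VGLL4 competes with YAP for TEAD. In the fetal and newborn mouse heart YAP is known to promote cardiomyocyte proliferation, and both YAP and β-catenin are associated with cell-cell junctions. Much of this control acts on protein, its phosphorylation and its place in the cell, which RNA counts do not measure.

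Libraries of both groups stood apart from the rest. Knockout library 2 was the shallowest, with 34027143 counts in genes against 43288936 to 45651797 in the others, it alone had the Xist level of a female (602 CPM, counts per 1e+06 counts after scaling by the trimmed mean of M-values, TMM, against 0.180 to 0.327 CPM in the other 3), and mitochondrially encoded genes took 14.4% of its counts, against 10.2% in knockout library 1 and 5.25% and 7.65% in control libraries 1 and 2. Control library 1 held T cell and thymocyte transcripts, whose 9 markers summed to 305 CPM, against 1.96 and 1.32 CPM in knockout libraries 1 and 2 and 6.03 CPM in control library 2. The 9 cardiomyocyte markers summed to 74364 and 80750 CPM in the knockout libraries and 61094 and 55743 CPM in the controls, so that the defining genes of heart muscle were abundant in every library, and the 4 atrial markers were also present, at 1433 and 1615 CPM against 1570 and 2649 CPM. Ctnnb1 itself was at 527 and 460 CPM in the knockout libraries and 409 and 434 CPM in the controls. Its log2 ratio of knockout to control was 0.23 ± 0.20 (SE, with an edgeR adjusted p of 0.532). Its count covers the whole gene in all cells of the ventricle and does not check the labels.

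The motif GGAATG, the core of the site that TEAD factors bind, was searched on both strands (CATTCC on the gene's own strand marks a match on the other) in the 250 bases before each RefSeq gene start on GRCm38.p6. The following promoters are shown because 3 are those of target genes and 1 is that of Vgll4, the member whose groups were farthest apart relative to their spread. Capitals mark the motif. For Ankrd1, Amotl2, Vgll4 and Lats2 the windows searched lie inside the GENCODE bounds of the gene given below. The RefSeq starts used for these genes thus differ from the GENCODE starts. The windows are chr19:36119845-36120094 on the reverse strand for Ankrd1, chr3:145649986-145650235 on the reverse strand for Cyr61, chr9:102717554-102717803 on the forward strand for Amotl2 and chr6:114969204-114969453 on the reverse strand for Vgll4.
Ankrd1: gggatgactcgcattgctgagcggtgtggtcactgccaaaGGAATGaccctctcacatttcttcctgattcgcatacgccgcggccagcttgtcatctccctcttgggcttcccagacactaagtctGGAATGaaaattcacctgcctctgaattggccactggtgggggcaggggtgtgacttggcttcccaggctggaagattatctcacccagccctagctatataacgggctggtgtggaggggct
Cyr61: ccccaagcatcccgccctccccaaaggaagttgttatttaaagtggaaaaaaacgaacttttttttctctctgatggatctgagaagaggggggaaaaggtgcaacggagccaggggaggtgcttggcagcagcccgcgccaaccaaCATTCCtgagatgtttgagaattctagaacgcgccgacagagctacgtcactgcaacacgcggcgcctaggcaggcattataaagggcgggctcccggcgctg
Amotl2: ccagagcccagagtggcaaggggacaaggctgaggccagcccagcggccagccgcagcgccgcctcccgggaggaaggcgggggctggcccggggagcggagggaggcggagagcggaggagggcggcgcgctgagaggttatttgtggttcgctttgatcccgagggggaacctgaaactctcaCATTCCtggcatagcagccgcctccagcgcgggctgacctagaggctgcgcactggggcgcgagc
Vgll4: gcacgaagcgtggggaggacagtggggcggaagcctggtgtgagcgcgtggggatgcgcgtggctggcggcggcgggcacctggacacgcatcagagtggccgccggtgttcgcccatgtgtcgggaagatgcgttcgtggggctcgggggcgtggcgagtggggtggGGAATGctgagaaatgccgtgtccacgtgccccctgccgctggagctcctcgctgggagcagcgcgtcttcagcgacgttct

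Of the 8 members matched in the promoter table (Ctgf and Tead1 were not matched), 6 had the motif before at least 1 of their starts. Ankrd1 had 2 copies, from -210 to -205 and from -123 to -118 relative to the start, where -1 is the last base before it. The other 5 had 1 copy per start: Cyr61 from -103 to -98, Amotl2 from -65 to -60, Vgll4 from -82 to -77, Yap1 from -141 to -136, and Wwtr1 from -136 to -131 before its first listed start, which is the same copy that lies from -170 to -165 before the second. Lats1 and Lats2 had no match in these windows. Over all 32851 promoters of this length, 12.6% held the motif and 1.02% held 2 or more copies, and by gene the share was 14.4% of 27025. The AP-1 motif TGANTCA and the CArG box, the site of serum response factor, matched 0 of the 8 members, against 7.82% and 1.62% of all genes. With 0 matches of the other 2 motifs, no TEAD match overlapped one. By gene, 6 of 15 general YAP targets and 1 of 9 cardiac YAP targets held the TEAD motif. So did 6 of 8 YAP, TAZ, TEAD and VGLL factors and 7 of 21 Hippo kinases and upstream regulators. In the dystrophin-glycoprotein complex 2 of 6 genes held it, so the motif was not particular to the target lists. The factors with a match include Yap1, Wwtr1 and Vgll4, and the upstream regulators include Amotl2. The general targets with a match include the members Ankrd1, Cyr61 and Amotl2 given above. A match describes letters and does not show that a factor binds there.

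**Figure D1:**
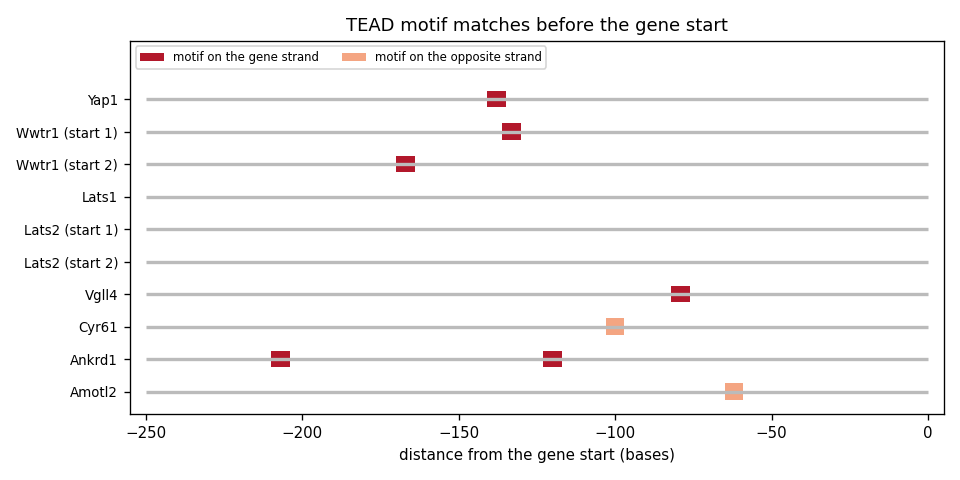
Matches of the TEAD motif in the 250 bases before each RefSeq gene start, with distance from the start in bases on the x axis and 1 row per start. Dark bars are matches on the gene's strand and light bars matches on the opposite strand. Ankrd1 has 2 matches, and Lats1 and Lats2 have 0.

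Per length, Ankrd1 was by far the most abundant member, and Lats2 had the lowest mean level in both groups, a place that depends on how its length is counted. TPM (transcript units: counts per base of exon, scaled to the same total in each library) allow levels of different genes to be compared within a library. Ankrd1 averaged 2438 ± 1891 TPM in knockout libraries and 1299 ± 802 TPM in controls (SD, n = 2 each). Ankrd1 encodes a stress-responsive protein of the cardiomyocyte sarcomere and nucleus. Next came Ctgf, at 243 ± 184 TPM in knockout libraries and 112 ± 26.8 TPM in controls, and Cyr61, at 86.5 ± 29.4 and 77.8 ± 32.7 TPM in the same order of groups. Both encode secreted matricellular proteins of the CCN family. Wwtr1 averaged 63.5 ± 13.6 TPM in knockout libraries and 72.8 ± 12.0 TPM in controls, and Amotl2 60.4 ± 4.44 and 69.3 ± 3.50 TPM. The libraries of Wwtr1 overlapped those of Cyr61 and those of Amotl2 in each group, so these neighbours in the order were not separated. Cyr61 and Amotl2 overlapped in controls alone. In knockout libraries 1 and 2 Cyr61 was at 65.7 and 107 TPM, above Amotl2 at 57.3 and 63.6 TPM. Ctgf was above Cyr61 within every library, by a TPM ratio of 1.71 and 3.48 in knockout libraries 1 and 2 and 1.69 and 1.29 in control libraries 1 and 2. Taken across libraries, the ranges of the pair overlapped in controls and not in knockout libraries.

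The regulators lay lower. Tead1 averaged 35.0 ± 11.4 TPM in knockout libraries and 41.8 ± 3.84 TPM in controls, and Yap1 23.6 ± 5.75 and 32.7 ± 3.56 TPM. Wwtr1 was above Yap1 in every library, by a TPM ratio of 2.64 and 2.75 in knockout libraries 1 and 2 and 2.13 and 2.31 in control libraries 1 and 2. Vgll4 averaged 11.8 ± 1.51 TPM in knockout libraries, level with Lats1 at 11.9 ± 5.03 TPM, whereas in controls Vgll4 was at 24.6 ± 0.154 TPM and Lats1 at 18.0 ± 1.23 TPM. Apart from this exchange of places the order of the 10 mean levels was the same in both groups. Lats2, at 8.46 ± 0.180 TPM in knockout libraries and 9.68 ± 1.83 TPM in controls, may be understated. Of its 6971 exon bases 2955 also belong to an overlapping gene on the same strand, Gm49361, which had 0 counts in every library, so reads there may have been set aside as ambiguous, and over the other 4016 bases alone Lats2 would stand at 14.5 and 14.9 TPM in knockout libraries and 14.6 and 19.0 TPM in controls. On that count it would no longer be last in knockout libraries, where Vgll4 and Lats1 averaged less, and in knockout library 2 Lats1, at 8.31 TPM, was below Lats2 even over its whole length, at 8.59 TPM. TPM are lowered in a library by the share taken up by mitochondrial and other abundant genes, so the groups are compared below on CPM scaled by TMM.

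No member passed the test between knockout and control. Of the 10 members, all of which passed the filter on low counts, edgeR's quasi-likelihood test called 0 higher and 0 lower at a Benjamini-Hochberg adjusted p under 0.05 over all 18157 genes tested, where 0.0110% of genes were called higher (2 genes) and 0% lower. DESeq2 also called 0 members in either direction, although it called 5.58% of 17034 genes higher and 4.43% lower. At p under 0.05 before adjustment edgeR had 1 member higher, Ctgf, and 1 lower, Vgll4, where the background was 11.8% of all genes upwards and 11.2% downwards. Both knockout libraries lay above both controls for 2 members, Wwtr1 and Ctgf, and below both for 1, Vgll4, against 26.5% and 29.7% of all genes tested, and these counts are near that background. The member log2 fold changes had a median of 0.27, against -0.02 over all genes tested. In bulk RNA, fewer cells of a type and less RNA per cell cannot be told apart.

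**Figure D2:**
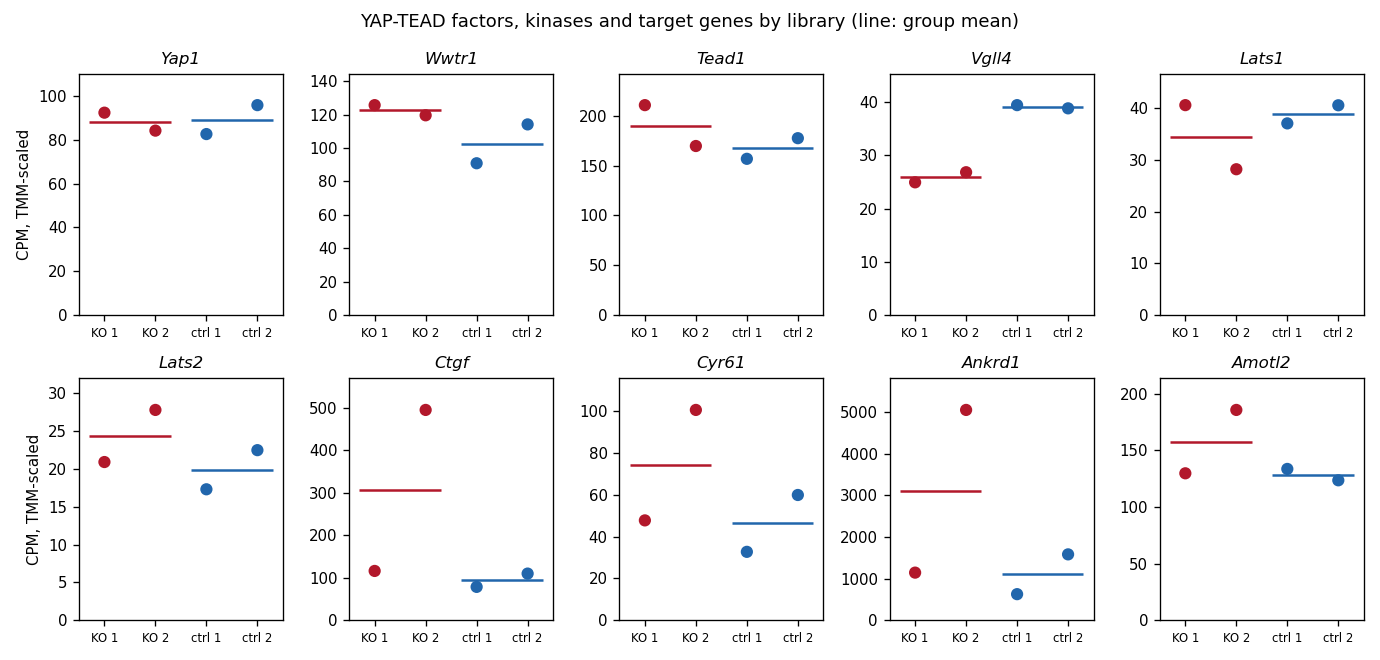
TMM-scaled CPM of the 10 genes in each library (points), with knockout (KO) libraries in red and control (ctrl) libraries in blue, and the group mean as a line. Knockout library 2 is the highest library for Ctgf, Cyr61, Ankrd1, Amotl2 and Lats2, and the groups separate with little spread for Vgll4.

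Among the co-activators, Yap1 (chromosome 9, 7931999 to 8004596, GRCm38, reverse strand) was at 92.3 and 84.1 CPM in knockout libraries 1 and 2 and 82.5 and 95.7 CPM in control libraries 1 and 2. The groups overlapped, with control library 2 highest and control library 1 lowest. The log2 ratio was -0.02 ± 0.17 (SE, with an edgeR adjusted p of 0.968), and its sign turned with the scaling, since it was -0.25 with library totals alone and 0.01 with DESeq2's size factors. Wwtr1 (chromosome 3, 57455649 to 57575910, reverse strand) was at 126 and 120 CPM in the knockout libraries and 90.9 and 114 CPM in the controls. The groups did not overlap, but knockout library 2 was only 1.05 times control library 2. Its log2 ratio was 0.26 ± 0.18 (SE, with an edgeR adjusted p of 0.440), and 0.02 with library totals alone, where the median of all genes moved to -0.26.

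Tead1 (chromosome 7, 112679318 to 112906807, forward strand) was at 211 and 170 CPM in the knockout libraries and 157 and 177 CPM in the controls. Its CPM were the highest of the TEAD genes, but CPM are not per length, and its TPM were not the highest in controls. The groups overlapped, with knockout library 2 between the controls, and the log2 ratio was 0.19 ± 0.19 (SE, with an edgeR adjusted p of 0.604) and -0.05 with library totals alone. Lats1 (chromosome 10, 7681214 to 7716460, forward strand) was at 40.5 and 28.2 CPM in the knockout libraries and 37.0 and 40.5 CPM in the controls. Knockout library 2 was the low one, and the other 3 lay together. Its log2 ratio was -0.17 ± 0.22 (SE, with an edgeR adjusted p of 0.670) and 0.07 without knockout library 2. Lats2 (chromosome 14, 57689662 to 57758388, reverse strand), a kinase and itself a YAP target in a negative feedback, was at 20.9 and 27.8 CPM in the knockout libraries and 17.3 and 22.5 CPM in the controls. The groups overlapped, and the log2 ratio was 0.29 ± 0.23 (SE, with an edgeR adjusted p of 0.498), and 0.08 without knockout library 2. The ratio of Lats2 to Lats1, which no scaling of the library alters, was 0.540 and 1.03 in knockout libraries 1 and 2 and 0.489 and 0.581 in control libraries 1 and 2 on the TPM scale, so that knockout library 2 stood apart and knockout library 1 lay between the controls.

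Vgll4 (chromosome 6, 114860628 to 114969994, reverse strand) was the member with the clearest separation of groups. It was at 24.9 and 26.8 CPM in knockout libraries 1 and 2, from 1105 and 793 reads, and at 39.4 and 38.8 CPM in control libraries 1 and 2, from 1837 and 1898 reads. Both knockout libraries lay below both controls, and replicates lay close together. The group means were 25.9 ± 1.34 CPM in knockout libraries and 39.1 ± 0.426 CPM in controls (SD, n = 2 each), a log2 ratio of -0.60 ± 0.16 (SE, with adjusted p-values of 0.120 in edgeR and 0.0670 in DESeq2). In the authors' deposited table its log2 fold change was -0.57 and its adjusted p 0.0663. The value lay between -0.64 and -0.49 when single libraries were left out. The ratio of Vgll4 to Tead1 on the TPM scale was 0.298 and 0.398 in knockout libraries and 0.632 and 0.550 in controls, without overlap, and the ratio to Yap1 was 0.463 and 0.547 in knockout libraries and 0.819 and 0.695 in controls.

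GC content moved with these values. Transcripts of Vgll4 have a GC content of 56.0%, against a median of 50.0% over tested genes. In the fifth of tested genes richest in GC, from 55.4% upwards, the median log2 fold change was -0.26 and 45.4% of genes lay below both controls in both knockout libraries, against a median of 0.19 and 14.5% in the fifth poorest in GC. After the trends with GC content and length were removed in each library, the log2 fold change of Vgll4 was -0.31 with an adjusted p of 0.260 in edgeR, in a range of 0.0670 to 0.680 over all alternatives. Amotl2, with 56.6% GC, moved from 0.29 to 0.63 in the same fit. The mitochondrial share of counts, given above, was also higher in both knockout libraries than in both controls, and with mitochondrially encoded genes and processed pseudogenes left out Vgll4 was at -0.555. What part GC content, length or mitochondrial share had in the value of Vgll4 was not tested.

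The target genes Ctgf, Cyr61, Ankrd1 and Amotl2 were all highest in knockout library 2, and none passed the test. Ctgf (chromosome 10, 24595442 to 24598683, forward strand) was at 116 and 496 CPM in knockout libraries 1 and 2 and 78.4 and 110 CPM in control libraries 1 and 2. The groups did not overlap, but knockout library 1 was only 1.06 times control library 2. The log2 fold change was 1.70 ± 0.64 (SE, with adjusted p-values of 0.188 in edgeR and 0.252 in DESeq2), and it was 0.31 without knockout library 2 and 2.45 without knockout library 1. A non-coding gene on the opposite strand, Gm15270, shares 665 of the 2861 exon bases of Ctgf and had 47 and 18 reads in the knockout libraries and 65 and 75 in the controls, and the strand setting of the counting is not given in the sources used here.

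Ankrd1 (chromosome 19, 36111961 to 36120099, reverse strand) was at 1144 and 5060 CPM in the knockout libraries and 625 and 1583 CPM in the controls. The groups overlapped, since knockout library 1 lay between the controls. Its log2 ratio was 1.49 ± 0.76 (SE, with an edgeR adjusted p of 0.296) with all libraries, 0.06 without knockout library 2, 2.25 without knockout library 1, 0.97 without control library 1 and 2.32 without control library 2. Cyr61 (chromosome 3, 145646976 to 145649981, reverse strand) was at 47.7 and 101 CPM in the knockout libraries and 32.7 and 59.9 CPM in the controls, again with knockout library 1 between the controls. The log2 ratio of Cyr61 was 0.68 ± 0.42 (SE, with an edgeR adjusted p of 0.381), 0.05 without knockout library 2 and 0.31 without control library 1, and 1.17 and 1.19 without knockout library 1 and control library 2. The 4 libraries fell in the same order for Ankrd1 and Cyr61, from knockout 2 through control 2 and knockout 1 to control 1.

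Amotl2 (chromosome 9, 102716672 to 102733418, forward strand), which encodes an angiomotin that binds YAP at junctions and is itself a YAP target, was at 130 and 186 CPM in the knockout libraries and 134 and 124 CPM in the controls. Knockout library 1 lay between the controls and knockout library 2 above them. The log2 ratio was 0.29 ± 0.22 (SE, with an edgeR adjusted p of 0.465), 0.02 without knockout library 2, 0.58 without knockout library 1 and 0.04 with library totals alone.

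Replicates of Ankrd1, Ctgf and Cyr61 lay far apart, and those of Amotl2 less so. Knockout library 2 exceeded knockout library 1 by 4.42 times for Ankrd1, 4.27 times for Ctgf, 2.11 times for Cyr61 and 1.43 times for Amotl2, ratios reached by 0.804%, 0.887%, 5.08% and 17.4% of the genes tested. Control library 2 exceeded control library 1 by 2.53 times for Ankrd1 and 1.83 times for Cyr61, ratios reached by 1.27% and 3.64% of genes, and by 1.40 times for Ctgf, reached by 10.6%, while for Amotl2 the ratio was 0.925. Over all 4 libraries the highest exceeded the lowest by 8.09 times for Ankrd1, 6.32 times for Ctgf and 3.08 times for Cyr61, and by 1.16 times (Yap1) to 1.61 times (Lats2) for the other 7 members, Amotl2 at 1.50 times included. The difference in sex and mitochondrial share between the knockout libraries goes with the difference in targets, and their part in it was not tested. Fibroblast markers, 8 genes of cells that express Ctgf and Cyr61, summed to 4623 and 4027 CPM in the knockout libraries and 2911 and 4544 CPM in the controls, with 0 of 8 called by DESeq2, and their sum was not highest in knockout library 2, although Tcf21 among them was, at 95.4 CPM, against 35.2 CPM in knockout library 1 and 55.3 CPM in each control. The 8 mural and smooth muscle markers summed to 1824 and 1557 CPM in the knockout libraries and 657 and 846 CPM in the controls, a sum carried by Acta2 (1375 and 1137 CPM in the knockout libraries, 173 and 332 CPM in the controls), the 1 marker that DESeq2 called higher. Of these 8 markers 6 had negative log2 ratios, against 9355 of the 18157 genes tested. Both knockout libraries lay above both controls for 1 and below both for 3, against 26.5% and 29.7% of all genes tested. The median log2 ratio of the 8 was -0.24, against -0.02 over all genes tested. Of the 9 cardiomyocyte markers DESeq2 called 2 higher, Actc1 and Myl2, and 0 lower, where it called 5.58% and 4.43% of all genes. The log2 ratios of the 9 ran from -1.16 to 1.12, with 7 positive and 2 negative. No gene of these lists was at 0 in every library. What part these cell types had in the values of the targets was not tested. The 8 endothelial markers summed to 1377 and 1635 CPM in the knockout libraries and 1461 and 1570 CPM in the controls.

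**Figure D3:**
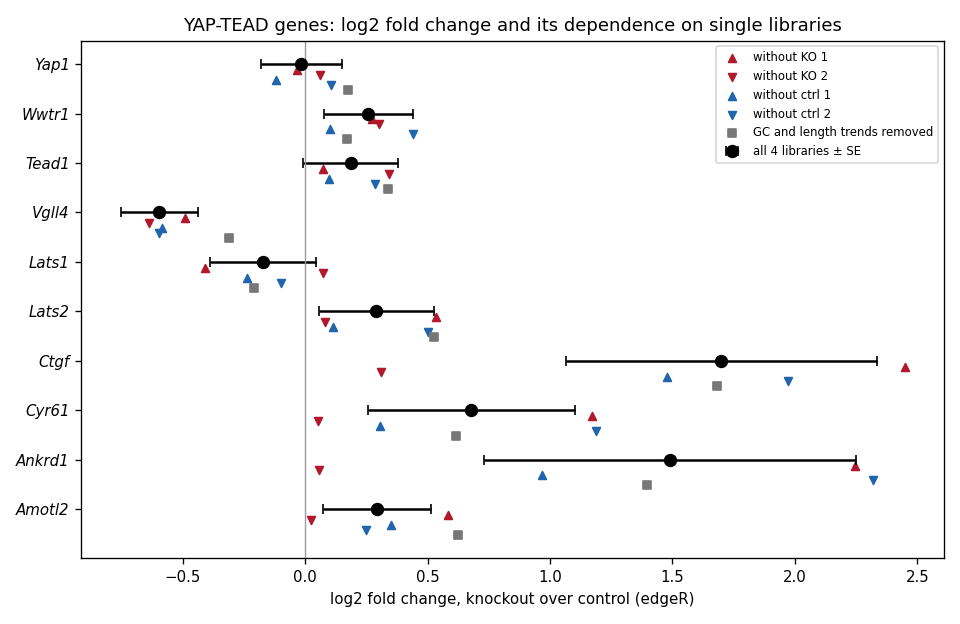
Log2 fold change of knockout over control for each gene from edgeR (black points, bars ± SE), with the values found when 1 library is left out (triangles) and when trends with GC content and length are removed (squares). Without knockout library 2 the values of Ctgf, Cyr61, Ankrd1 and Amotl2 are 0.31, 0.05, 0.06 and 0.02.

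Among the other TEAD and VGLL genes, Tead3 was the one that DESeq2 called. Tead3 (chromosome 17, 28331671 to 28350817), which encodes a TEAD factor with the same DNA-binding domain, was at 42.3 and 43.2 CPM in knockout libraries and 86.9 and 86.1 CPM in controls, with no overlap and little spread within a group. Its log2 fold change was -1.02 ± 0.15 (SE, with adjusted p-values of 0.0925 in edgeR and 6.12e-05 in DESeq2), so that it fell by DESeq2's test and not by edgeR's. Without a filter on low counts edgeR gave an adjusted p of 0.0294. Tead3 has a GC content of 59.2%, and with GC and length trends taken out the value was -0.62, with an adjusted p of 0.130 in edgeR and a range of 6.12e-05 to 0.615 over all alternatives. Leaving out single libraries gave values from -1.02 to -0.95.

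Tead2 was at 78.1 and 45.1 CPM in knockout libraries and 93.0 and 109 CPM in controls, a log2 ratio of -0.71 ± 0.28 (SE, with an edgeR adjusted p of 0.203) that was -0.36 without knockout library 2, -1.11 without knockout library 1 and -0.41 with GC and length trends taken out. Tead4, the least abundant TEAD gene, was at 7.44 and 6.66 CPM in knockout libraries and 8.43 and 8.95 CPM in controls. On the TPM scale Tead2, at 71.5 ± 8.25 TPM in controls, was above Tead3 at 43.7 ± 0.0724 and Tead1 at 41.8 ± 3.84, which overlapped, and Tead4 at 8.19 ± 0.387. In knockout libraries Tead1 averaged 35.0 ± 11.4 TPM, Tead2 32.8 ± 17.7, Tead3 15.7 ± 2.57 and Tead4 4.87 ± 1.24. Vgll3, a TEAD cofactor of the vestigial-like family, was at 4.35 and 12.5 CPM in knockout libraries and 3.15 and 4.07 CPM in controls, high in the same library as Ctgf. Vgll2 had at most 1 read in any library.

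**Figure D4:**
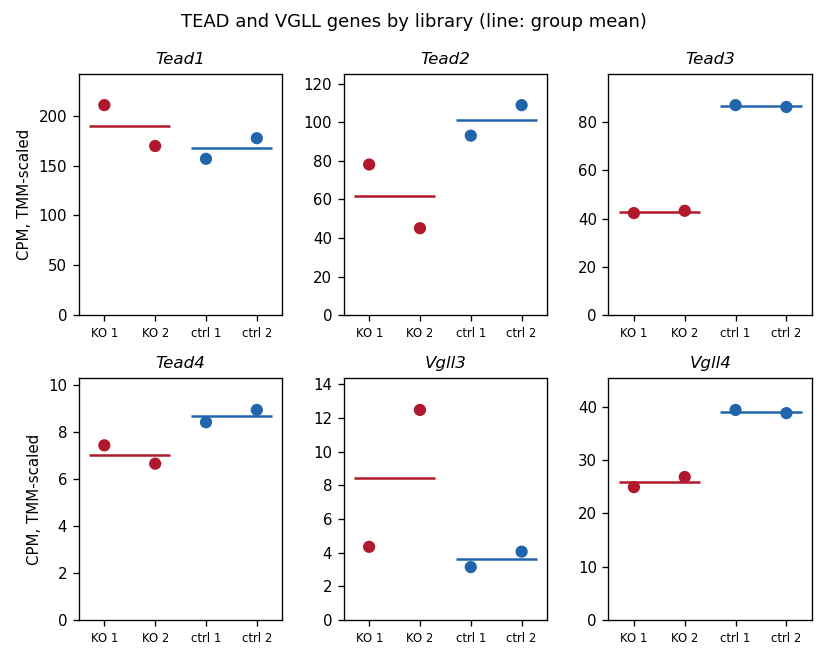
TMM-scaled CPM of 6 TEAD and VGLL genes in each library (points), knockout (KO) in red and control (ctrl) in blue, with group means as lines. Tead3 was at 42.3 and 43.2 CPM in knockout libraries and 86.9 and 86.1 CPM in controls, and Vgll3 is high in knockout library 2 alone.

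The list of YAP, TAZ, TEAD and VGLL factors held 10 genes, of which 8 passed the filter, and edgeR called 0 of them (0 up and 3 down at p under 0.05 before adjustment, where 11.2% of all genes were down) while DESeq2 called 1 lower, Tead3, where it called 4.43% of all genes lower. Both knockout libraries lay below both controls for 4 (Tead2, Tead3, Tead4 and Vgll4) and above for 2 (Wwtr1 and Vgll3), against 29.7% and 26.5% of all genes tested. The median log2 fold change was -0.16, and it was -0.07 without control library 2, -0.08 without knockout library 2 and 0.07 with GC and length trends taken out, so no direction can be given to the family.

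The list of Hippo kinases and upstream regulators, called upstream regulators below, held 25 genes, among them the members Lats1, Lats2 and Amotl2. All were tested, and edgeR called 0 (1 up and 1 down at p under 0.05 before adjustment, against 11.8% and 11.2% of all genes). DESeq2 called 1 higher and 0 lower, against 5.58% and 4.43% of all genes. The median log2 ratio of the list was -0.17, and -0.18 over its 22 genes other than the members. For the whole list it was -0.07 without knockout library 2 and -0.10 without control library 2. Stk3, the gene of the Hippo kinase MST2, was the gene that DESeq2 called, at 32.0 and 26.4 CPM in knockout libraries and 16.0 and 19.8 CPM in controls (log2 fold change 0.71 ± 0.21, SE; adjusted p = 0.134 in edgeR, 0.0496 in DESeq2). Stk3 has a GC content of 40.9%, and with GC and length trends taken out the value was 0.57, with an adjusted p of 0.142 in edgeR. Its partner kinase Stk4 was at 44.8 and 32.8 CPM in knockout libraries and 48.2 and 37.2 CPM in controls. The groups overlapped also for the scaffold Sav1, with 29.6 and 24.0 CPM in knockout libraries against 29.6 and 31.3 CPM in controls, and for the LATS co-activator Mob1a, with 50.8 and 59.1 CPM against 51.6 and 58.4 CPM. Nf2, which encodes merlin, the membrane-linked activator of the cascade, was at 175 and 123 CPM in knockout libraries and 145 and 140 CPM in controls. The angiomotins Amot and Amotl1 had log2 fold changes of -0.15 ± 0.29 and -0.28 ± 0.30 (SE; adjusted p = 0.792 and 0.617, edgeR). Ptpn14, a phosphatase that binds YAP, was at 65.2 and 63.3 CPM in knockout libraries and 81.5 and 82.9 CPM in controls, a log2 ratio of -0.36 ± 0.15 (SE, with an edgeR adjusted p of 0.222). Both knockout libraries lay below both controls for 7 of the 25 genes and above for 3, where the shares over all genes were 29.7% and 26.5%.

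General YAP target genes were taken from a list of 22 drawn from knowledge of other tissues, mostly tumours, of which 21 were tested. Neither edgeR nor DESeq2 called any of them, with 2 higher (Ctgf and Nt5e) and 0 lower at p under 0.05 before adjustment in edgeR, where 11.8% and 11.2% of all genes were. Tested genes of the list had a median log2 ratio of 0.29, and 0.17 over its 16 tested genes other than the members. It was 0.08 without knockout library 2, 0.47 without knockout library 1 and 0.04 with library totals alone. Tgfb2, a growth factor, was at 38.6 and 40.2 CPM in knockout libraries and 20.8 and 33.9 CPM in controls, and Myof, a membrane repair protein of the ferlin family, at 20.9 and 25.1 CPM against 17.8 and 19.9 CPM, with adjusted p-values of 0.275 and 0.419 (edgeR). The receptor kinase Axl was at 91.2 and 99.3 CPM in knockout libraries and 98.0 and 110 CPM in controls. The coagulation factor receptor F3 (10.6 and 14.4 CPM in knockout libraries, 10.2 and 10.8 CPM in controls), the BMP-binding protein Crim1 and the kinase Nuak2 had log2 fold changes of 0.25, 0.15 and 0.44, with overlapping groups.

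Of 10 genes named as YAP targets in the heart, all tested, edgeR called 0 (2 up and 0 down at p under 0.05 before adjustment, against 11.8% and 11.2% of all genes) and DESeq2 called 1 higher and 0 lower, against 5.58% and 4.43%. Birc5, the mitotic regulator and apoptosis inhibitor survivin, was at 20.7 and 36.0 CPM in knockout libraries and 8.77 and 13.3 CPM in controls, a log2 ratio of 1.36 ± 0.34 (SE, with adjusted p-values of 0.113 in edgeR and 0.00484 in DESeq2) that was 0.92 without knockout library 2. The other gene up before adjustment was Cdc20, with a log2 ratio of 0.99 (edgeR adjusted p of 0.162) that was 0.49 without knockout library 2. The mitotic kinase Aurka was at 8.93 and 23.8 CPM in knockout libraries and 6.33 and 9.01 CPM in controls, with overlapping groups. Its log2 ratio of 1.09 (edgeR adjusted p of 0.243) was 0.23 without knockout library 2. Birc5 and Aurka are expressed in dividing cells of any kind and are not specific to YAP. Pik3cb, a catalytic subunit of phosphoinositide 3-kinase that YAP activates in mouse cardiomyocytes, was at 16.4 and 14.3 CPM in knockout libraries and 14.7 and 16.3 CPM in controls, a log2 ratio of -0.01 ± 0.21 (SE, with an edgeR adjusted p of 0.978). Igf1r, a growth factor receptor, was at 95.9 and 129 CPM in knockout libraries, both below the 134 and 134 CPM of the controls. Tested genes of the list had a median log2 ratio of 0.14.

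The dystrophin-glycoprotein complex, which in mouse cardiomyocytes is known to bind YAP at the membrane, had 8 listed genes, all tested, of which edgeR and DESeq2 called 0 (0 up and 1 down at p under 0.05 before adjustment in edgeR, against 11.8% and 11.2% of all genes). Dmd, the gene of dystrophin, was at 138 and 76.9 CPM in knockout libraries and 81.8 and 83.7 CPM in controls. Dag1, the gene of dystroglycan, was at 435 and 296 CPM in knockout libraries and 337 and 303 CPM in controls. Sgcd, the gene of δ-sarcoglycan, was at 20.6 and 8.49 CPM in knockout libraries and 9.61 and 9.95 CPM in controls. In all 3 genes knockout library 1 was high and knockout library 2 was the lowest library. The list's median of 0.28 was -0.11 without knockout library 1.

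**Figure D5:**
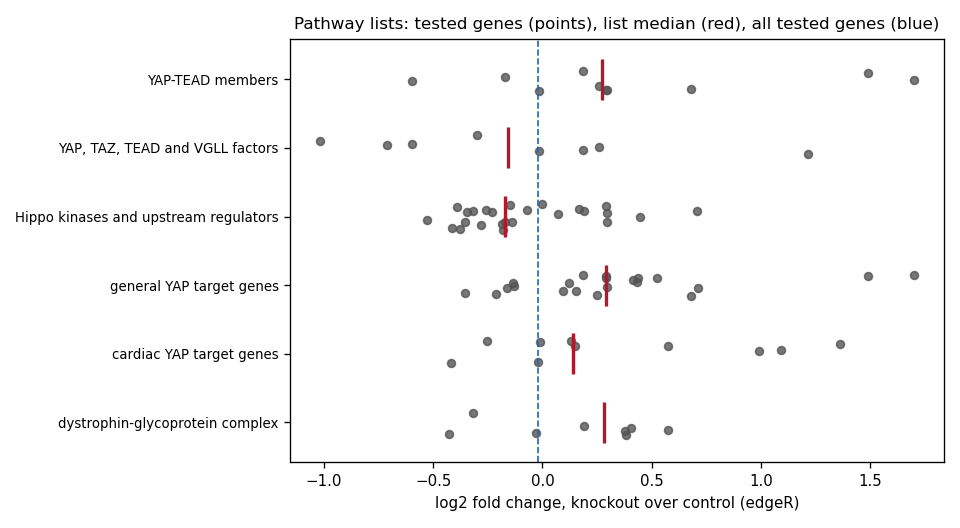
Log2 fold change of knockout over control (x axis, edgeR) for the tested genes of each list (grey points), with the list median (red) and the median of all tested genes, -0.02 (dashed blue). The medians are 0.27 for the members, -0.16 for the factors, -0.17 for the upstream regulators, 0.29 and 0.14 for the general and cardiac targets and 0.28 for the dystrophin-glycoprotein complex.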

How the data were processed

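PolyA-selected RNA of mouse ventricles was sequenced from stranded libraries, 2 knockout and 2 control. Per the submitters' processing notes, the aligner was STAR 2.5.3a, the genome build GRCm38 and the counter HTSeq 0.6.1. The annotation release is not given in the sources used here. The deposited counts are whole reads per gene without scaling. The authors' deposited table repeats them, with log2 fold changes and p-values, for which the notes name DESeq2 1.18. Its 4 columns of normalized values were not used. The 5 HTSeq summary categories, among them multiply aligned reads (23.9% and 29.7% in knockout libraries, 19.4% and 21.0% in controls), stayed out of library sizes.

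Symbols came from GENCODE vM21 (53274 of 53465 identifiers matched). Counts were filtered with filterByExpr, scaled by TMM and tested with edgeR 4.0.16 in R 4.3.3 (quasi-likelihood test, no covariate, Benjamini-Hochberg over 18157 genes). DESeq2 1.42.0 and limma 3.58.1 were alternatives. The code was tested on simulated data. SE is the log2 fold change divided by the square root of F. Library depth of 34027143 to 45651797 counts bears on counting error only. The members and lists were chosen with earlier results of these data known. Genes to be named were fixed by role, with any list gene called by edgeR or DESeq2. Nt5e, Cdc20, Gm49361, Gm15270, Xist, Tcf21, Acta2, Actc1 and Myl2 were named after their values were seen.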

Additional observations from a re-analysis of the deposited data

How the results depend on the processing

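The 10 member log2 fold changes were recomputed under 12 alternatives. Of the 120 values, 112 kept their direction and none passed an adjusted p of 0.05. The 8 that turned round belong to genes near 0. Yap1 was 0.014 with DESeq2's size factors, 0.0066 in DESeq2, 0.18 with GC and length trends taken out, 0.025 without mitochondrially encoded genes and processed pseudogenes, and between -0.12 and 0.10 with 1 library left out. Tead1 was -0.047 with library totals alone, and Lats1 lay between -0.41 and 0.074 with 1 library left out. Adjusted p-values of Vgll4 ranged from 0.0670 to 0.680 and those of Ctgf from 0.0537 to 0.707.

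The number of genes called higher and lower over all genes was 313 and 241 without a filter, 951 and 755 in DESeq2, 0 and 0 in limma-voom, 0 and 0 without mitochondrially encoded genes and processed pseudogenes, and 0 to 9 and 0 to 30 with 1 library left out. Fits without 1 library leave a group with a single one, which is assumed to vary like the others. With the replicate block it was 9 and 9. The replicate numbers are not known to pair the libraries: deviations of same-numbered libraries correlated at -0.11 across genes. The crossed replicate block, added after the data were seen, gave 501 and 440, with 0 members in either direction.

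With library totals alone the medians were 0.028 for the members, -0.40 for the factors, -0.40 for the upstream regulators, 0.037 for general targets, -0.091 for cardiac targets and 0.046 for the dystrophin-glycoprotein complex, while that of all genes was -0.26. With GC content and length trends removed they were 0.073 for the factors, -0.043 for the upstream regulators and 0.47 for general targets. Leaving out 1 library gave 0.067 to 0.40 for the members, -0.23 to -0.07 for the factors, -0.22 to -0.07 for the upstream regulators, 0.081 to 0.47 for general targets, 0.017 to 0.30 for cardiac targets and -0.11 to 0.29 for the dystrophin-glycoprotein complex. Each group has 2 libraries, and a p that misses the threshold does not show that levels were the same.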
